A study of Mus musculus with 7 samples.

Results

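Stromal cells sorted from mouse intestine for low Pdgfra and surface CD81 were compared between 6 days and 4 days after Apc had been inactivated in the neighbouring epithelium. The column names of all 7 libraries, controls included, give the sort as low GFP and CD81 positive, without naming the GFP reporter. The comparison rests on 4 knockout libraries (2 per day) of 7 in all, chosen by column name, and covers 11735 of 24908 genes, those with at least 1 FPKM (a level divided by transcript length and by the number of mapped fragments) in at least 2 of the 7 libraries. In the knockout mice, Apcflox/flox alleles were deleted by Villin-CreERT2, an inducible Cre driven by an epithelial promoter, so the sorted stromal cells keep Apc. The other 3 libraries are labelled wildtype controls, without further genotype or treatment. By their column names, the day 4 harvest set holds both day 4 knockout libraries beside 1 control, and the day 6 set holds 2 controls with day 6 knockout replicate 1. The column of day 6 knockout replicate 2 carries no day, and its day and set are taken from the samples left over. The labels give no age or sex, and do not say whether libraries came from separate or pooled animals, so p-values measure the spread between these libraries only.

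Cells with low Pdgfra and surface CD81 lie under the crypts and are called trophocytes. They secrete Gremlin-1, which holds BMP signals away from stem cells, and R-spondins and WNT ligands, which sustain them. Apc is a scaffold of the complex that marks beta-catenin for destruction, and its loss leaves WNT signalling on in the epithelium. The 4-day and 6-day libraries ask which stromal responses pass, stay or appear late while this happens next door.

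The sort markers were present in every library, and some libraries stood apart in ways that touch the results below. Pdgfra was 54.3 to 134 FPKM and Cd81 32.4 to 169 FPKM, with the lowest Cd81 in day 4 knockout replicate 2. Apc, intact in these cells, was 2.22 to 3.29 FPKM and does not check the knockout. The table holds no counts, so depth is unknown. The 2 day 4 knockout libraries differed from each other with a standard deviation (SD) of 0.602 over genes on the log2 scale, against 0.425 for the 2 day 6 knockouts and 0.456 for the 2 day 6 set controls. In bulk RNA, fewer cells of a kind and less RNA per cell cannot be told apart.

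Some genes stood away from the controls at day 4 and nearer to them at day 6, in either direction. The tubulin-binding protein gene Tppp3 was 81.3 and 32.3 FPKM at day 4 and 379 and 319 FPKM at day 6. The controls stood at 439 FPKM in the day 4 set and 366 and 293 FPKM in the day 6 set, so day 6 lay within the control range. The chemokine gene Cxcl13, whose product draws B cells, was 362 and 658 FPKM at day 4 and 125 and 92.4 FPKM at day 6, with controls at 60.9, 50.7 and 45.1 FPKM. The day 6 libraries lay between the day 4 libraries and the controls.

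With all 3 controls in 1 group, no gene passed the test of day 6 against day 4 (limma, Benjamini-Hochberg adjusted p, threshold 0.05, 0% of 11735 genes). The smallest adjusted p was 0.196, reached by Rgs2 and Gm7367 among others. At an unadjusted p under 0.05, 1001 genes (8.53%) were higher and 344 (2.93%) lower at day 6, where 587 are expected by chance in all. Both day 6 libraries lay above both day 4 libraries for 3197 genes (27.2%) and below them for 1801 (15.3%). These directions lean on scaling, since 74.4% of genes at an unadjusted p under 0.05 were higher at day 6 as deposited, 54.9% after quantile normalization and 58.9% after median centring. The count of 0 became 83 with the controls split by harvest set, or equally when the day 4 set control was left out. It was 22 when day 4 knockout replicate 1 was left out and 2 when the second day 6 set control was. It was 61 with the 4 knockout libraries alone.

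Each of 9017 genes with a mean of at least 3 FPKM was placed by its level on both days relative to the 3 controls, as a description with no test. A transient response had both day 4 libraries beyond the other 5. Its day 4 mean lay at least 1 from the mean of the controls on the log2(FPKM + 1) scale. Its day 6 difference of means was at most 0.5 times as large in the same direction, or of any size in the opposite direction. A late response was the mirror image. Genes that crossed the controls between days are thus included, among them Gapdh and Hist1h2bf (transient higher) and Grem1 (late higher). A sustained response had all 4 knockout libraries beyond all controls, with a difference of means of at least 1 on each day and neither day over 2 times the other. By this rule 262 genes were transient, 73 sustained and 26 late. Transient lower genes were the most frequent kind at 208 (2.31% of 9017), and 54 were transient higher (0.599%). Sustained genes were 48 higher (0.532%) and 25 lower (0.277%), and late genes 20 higher (0.222%) and 6 lower (0.0665%). Since the day 4 and day 6 libraries also differ in harvest set, each class was checked against the controls of its own set alone, and 205 of the 361 genes kept a difference of at least 1 there. This own-set check covered day 4 for transient genes, day 6 for late genes and both days for sustained genes. It did not retest the whole class rule. With the whole rule on own-set controls, 17 transient higher, 89 transient lower, 34 sustained higher, 16 sustained lower, 8 late higher and 3 late lower genes kept their class. The counts are not fixed by all libraries alike. Leaving out a library also loosens the order rule, since fewer libraries must stand apart, so larger counts are expected in part from that alone. The fit lacking the day 4 set control had 96 transient higher, 322 transient lower, 56 sustained lower and 13 late higher genes. Without day 4 knockout replicate 1 there were 150 transient higher, 392 transient lower and 11 late lower genes, and without replicate 2 there were 153 transient higher genes. Without day 6 knockout replicate 1 there were 3 sustained lower and 3 late lower genes, and without replicate 2 there were 74 sustained lower, 82 late higher and 88 late lower genes. Without the second day 6 set control 11 genes were late lower.

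**Figure D1:**
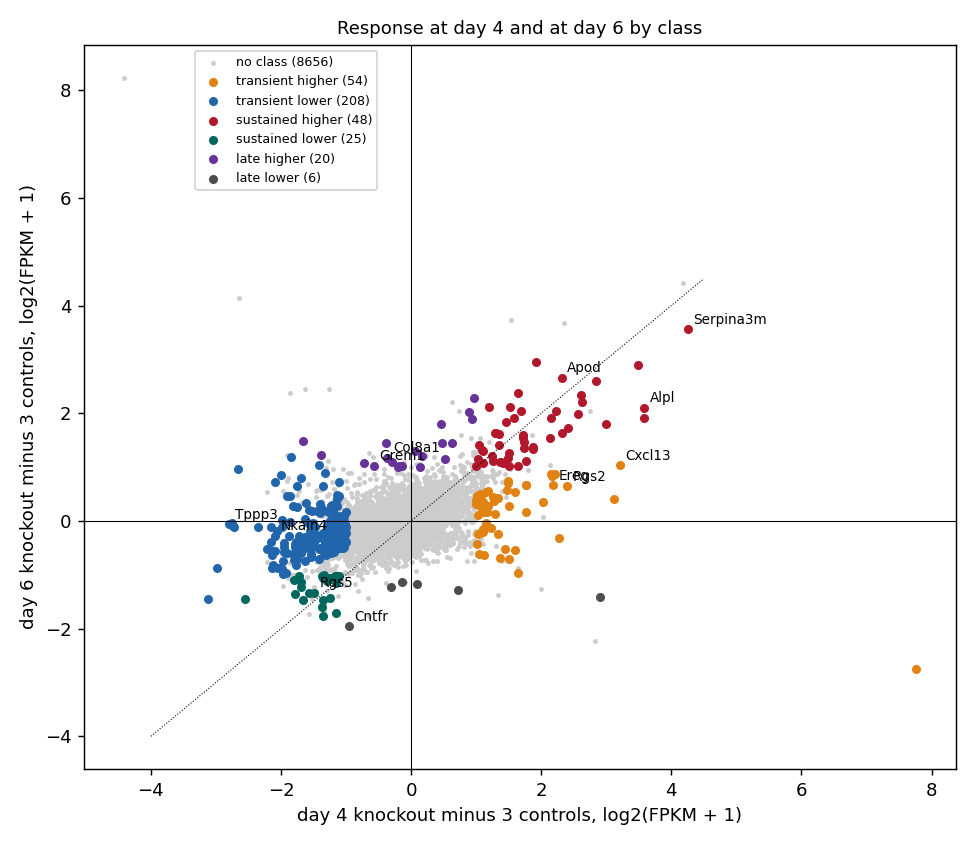
Each point is 1 of 9017 genes, with the day 4 knockout mean minus the mean of 3 controls on the x axis and the same for day 6 on the y axis, both on the log2(FPKM + 1) scale, and colours mark the response classes. The 208 transient lower genes lie left of 0 near the horizontal line. The 48 sustained higher genes follow the dotted line of equal response, with Serpina3m farthest out. The class rules set these positions in part.

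Against the 3 controls, 47 genes rose (0.401%) and 73 fell (0.622%) at day 4. Both groups were picked by their day 4 values, so smaller differences at day 6 are expected in part from that choice alone. The share of smaller differences over all tested genes was not counted. Of the 73, 61 had a day 6 difference at most 0.5 times that of day 4 in the same direction, or any in the opposite direction. The median of the 73 went from -1.52 to -0.47 on the log2 scale, and 52 were transient. Of the 47, 14 met that limit, the median went from 1.69 to 0.99, 11 were transient and 20 sustained. At day 6, 5 genes rose (0.0426%) and none fell by limma, and Serpina3m, Apod, Hspb7 and Alpl were among those that rose. Both days share their 3 controls. Against the day 4 set control alone 5 rose and 0 fell at day 4, and with that control left out 137 rose and 337 fell. Leaving out the first day 6 set control gave 6 and 0, leaving out the second gave 2 and 0, and leaving out day 4 knockout replicate 2 gave 7 and 2. With day 6 knockout replicate 1 left out of the fit the counts were 22 and 46, and with replicate 2 left out 22 and 48. The 5 genes at day 6 became 2 against the day 6 set controls alone or in the fit lacking the day 4 set control. They became 0 and 3 when the first or second day 6 set control was left out, and 0 when either day 6 knockout library was.

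Of the 6 tested EGF family ligands, 4 were among the 54 transient higher genes, a class that holds 0.599% of the 9017 genes placed. Areg, which codes for amphiregulin, was 55.3 and 53.9 FPKM at day 4, 26.3 and 18.1 FPKM at day 6, 9.35 FPKM in the day 4 set control and 15.6 and 10.3 FPKM in the day 6 set controls. Day 6 stayed above all controls and below day 4. Ereg, which codes for epiregulin, was 658 and 1157 FPKM at day 4 and 241 and 383 FPKM at day 6, against 159 to 222 FPKM in the controls. Epgn, the gene of epigen, was 5.20 and 11.9 FPKM at day 4 and 2.04 and 1.62 FPKM at day 6, where its libraries overlapped with the controls (0.919 to 1.70 FPKM). Nrg1, which codes for neuregulin and signals through ERBB receptors, was 8.89 and 26.9 FPKM at day 4 and 6.04 and 7.55 FPKM at day 6, with 1.59 FPKM in the day 4 set control and 5.43 and 6.06 FPKM in the day 6 set controls. Its day 6 libraries did not stand clear of the controls of their set.

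Areg, Ereg and Epgn rose at day 4 against the controls (adjusted p = 0.0274, 0.0373 and 0.0441 by limma). Day 6 minus day 4 was -1.28 ± 0.27 (log2 ± standard error, SE) for Areg, -1.52 ± 0.35 for Ereg, -1.67 ± 0.35 for Epgn and -1.10 ± 0.58 for Nrg1, none past the adjusted threshold (0.257, 0.271, 0.257 and 0.520). In the controls the same difference between sets was 0.40, -0.06, 0.16 and 1.38. With it taken out, the values were -1.69, -1.46, -1.82 and -2.48. The list of EGF family ligands had a median of -1.19 (controls 0.25), against 0.053 over all tested genes, and 0 of 6 were positive.

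The Areg promoter is shown with that of Creb5, a transcription factor gene of the transient lower class, because both hold the cAMP response element TGACGTCA close to the start. Both lines give the 250 bases before the start from RefSeq (build GRCm38.p6), 5′ to 3′ on the plus strand, with the element in capitals. The files use another build, mm9, so these positions belong to the RefSeq table only. Areg lies at chr5:91139349-91139598, and its element begins 61 bases before the start. Creb5 lies at chr6:53287053-53287302, and its element begins 45 bases before the start.
Areg: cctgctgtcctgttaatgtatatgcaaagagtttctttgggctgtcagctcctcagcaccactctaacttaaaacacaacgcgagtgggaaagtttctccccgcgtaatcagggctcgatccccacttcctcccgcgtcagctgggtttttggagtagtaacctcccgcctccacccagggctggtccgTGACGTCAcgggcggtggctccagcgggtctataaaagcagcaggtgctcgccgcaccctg
Creb5: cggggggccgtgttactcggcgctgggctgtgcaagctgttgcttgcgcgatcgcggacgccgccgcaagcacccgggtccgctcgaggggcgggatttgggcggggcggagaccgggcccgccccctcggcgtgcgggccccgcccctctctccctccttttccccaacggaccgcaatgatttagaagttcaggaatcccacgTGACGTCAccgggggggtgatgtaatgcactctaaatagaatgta

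Over 27025 RefSeq windows, 1 per gene and each from 250 bases before to 50 after the start, 1.88% held TGACGTCA on either strand, and over the 9188 tested genes with a window 3.34% did. It was in 5 of 134 named genes with a window (3.73%), 2 of 38 transient higher genes (5.26%) and 4 of 145 transient lower genes (2.76%). The AP-1 element TGANTCA was in 4 of the 38 transient higher genes (10.5%), against 4.77% of tested genes. The TCF/LEF core CTTTGA, read by beta-catenin partners, was in 6 of them (15.8%) and in 22 of 145 transient lower genes (15.2%), against 11.8% of tested genes. Each motif was searched on both strands, and a match here describes the letters only.

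By symbol, the 54 transient higher genes also held 4 ribosomal protein genes or copies, 6 respiratory chain genes and 2 histone genes, a count made after the members were seen. None of these met the own-set check, so none stood 1 log2 unit above the day 4 set control at day 4. The share of such genes over all genes placed was not counted. Rgs2, which shortens G protein signals, was 62.8 and 90.6 FPKM at day 4 and 20.5 and 22.9 FPKM at day 6, against 11.9 to 14.5 FPKM in controls. It rose at day 4 (adjusted p = 0.00889), and its day 6 minus day 4 value was -1.76 ± 0.21 (SE, unadjusted p = 4.28e-05, adjusted p = 0.196), with -0.15 between the control sets. For Cxcl13, which rose at day 4 (adjusted p = 0.0103), day 6 minus day 4 was -2.17 ± 0.31 (adjusted p = 0.242) and the control sets differed by -0.34. The potassium channel interacting protein gene Kcnip3 was 9.45 and 10.3 FPKM at day 4 and 3.45 and 3.59 FPKM at day 6, below the controls at 3.88 to 4.83 FPKM. It rose at day 4 (adjusted p = 0.0441). Adamts15, a protease that cuts proteoglycans, was 24 and 10.6 FPKM at day 4 and 7.07 and 4.62 FPKM at day 6, against 1.86 to 4.06 FPKM in controls, and rose at day 4 (adjusted p = 0.0443). Ccl11, the eosinophil chemokine eotaxin, was 763 and 1850 FPKM at day 4, 485 and 586 FPKM at day 6 and 398 to 593 FPKM in controls, and did not pass at day 4 (adjusted p = 0.148).

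In some members of this class the control sets differed in the direction of the knockouts. Saa3, an acute phase apolipoprotein gene, was 287 and 142 FPKM at day 4 and 16.3 and 54.7 FPKM at day 6, but the control sets differed in the same direction, at 67.7 FPKM against 9.38 and 17 FPKM. Mir6236, listed at 1787 and 1196 FPKM at day 4 and 307 FPKM in the day 4 set control, was listed at 0 in all 4 libraries of the day 6 set. Saa3 and Mir6236 still met the own-set check, while Gapdh, Tma7 and Gm6793 of this class did not. Of the 54 transient higher genes, 31 had a difference between the control sets of the same sign and at least 0.5 times that of the knockouts, and 23 met the own-set check.

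**Figure D2:**
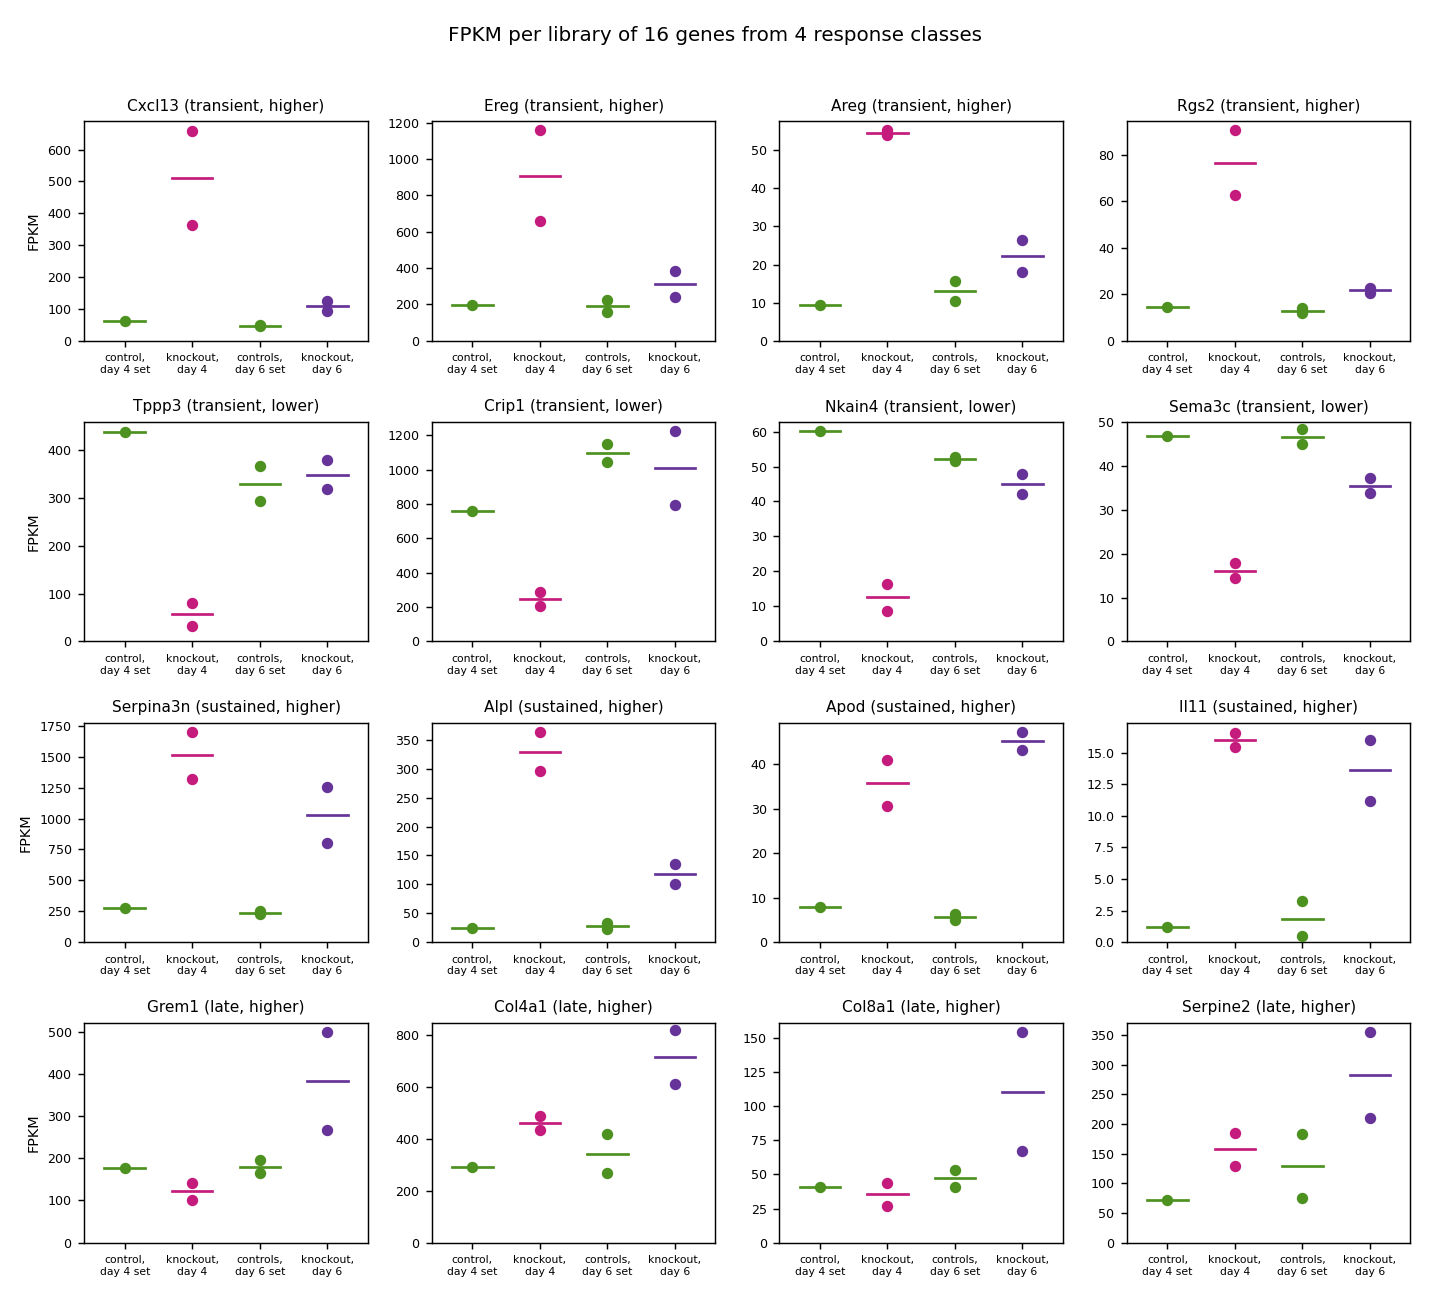
FPKM per library (y axis, from 0) of 16 genes in the control of the day 4 set, the day 4 knockouts, the controls of the day 6 set and the day 6 knockouts, with points for libraries and a bar for the group mean. Tppp3 at day 6 (379 and 319 FPKM) lies within its controls, Serpina3n (drawn after its values were seen) stays at 804 FPKM or more in all 4 knockout libraries, and Grem1 leaves the controls upward only at day 6 (501 and 267 FPKM).

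The median log2 difference from controls of the 208 transient lower genes was -1.28 at day 4 and -0.27 at day 6. For 71 of them both day 6 libraries lay within the range of the 3 controls. The class rule sets limits on both days, so these values follow in part from it. The share of genes within that range over all genes placed was not counted. For the 208 genes the control sets differed by a median of 0.48 in the direction of the knockouts. Of them, 97 had a set difference at least 0.5 times that of the knockouts, and 112 met the own-set check. Tppp3 fell at day 4 (adjusted p = 0.0323), and its day 6 minus day 4 value was 2.73 ± 0.41 (SE, adjusted p = 0.242), while the control sets differed by -0.42. Crip1, a LIM domain protein gene, was 290 and 208 FPKM at day 4 and 1228 and 793 FPKM at day 6, with controls at 762, 1152 and 1046 FPKM. It fell at day 4 (adjusted p = 0.0413), and its day 6 minus day 4 value was 2.00 ± 0.33, with 0.53 between the control sets. Nkain4, which codes for a partner of the sodium pump, was 16.4 and 8.82 FPKM at day 4, 42.1 and 47.9 FPKM at day 6 and 51.5 to 60.2 FPKM in controls. It fell at day 4 (adjusted p = 0.0274).

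Of the other transient lower genes, Sema3c, a secreted semaphorin, was 17.9 and 14.4 FPKM at day 4, 33.8 and 37.2 FPKM at day 6 and 45.0 to 48.4 FPKM in controls, and fell at day 4 (adjusted p = 0.0186). Day 6 stayed below every control. Creb5, a CRE-binding transcription factor, was 4.61 and 4.62 FPKM at day 4 and 14.7 and 13.4 FPKM at day 6, against 10.4 to 14.4 FPKM in controls, and fell at day 4 (adjusted p = 0.0334). Its day 6 minus day 4 value was 1.42 ± 0.19 (adjusted p = 0.240), opposite in sign to the control sets (-0.30). Itga11, the collagen-binding integrin alpha-11, was 9.03 and 16.4 FPKM at day 4 and 33.3 and 42.1 FPKM at day 6, against 42.0 to 55.9 FPKM in controls, and fell at day 4 (adjusted p = 0.0323). Qpct, the glutaminyl cyclase gene, was 24.1 and 16.4 FPKM at day 4 and 63.6 and 48.4 FPKM at day 6, with controls at 57.4 to 76.4 FPKM, and fell at day 4 (adjusted p = 0.0323). Its day 6 libraries overlapped with the controls.

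Not every transient lower gene kept clear of the harvest set or of a single library. Ccl21c, Gm13304 and Gm10591, near-identical copies whose reads may be shared, stood at 0.980 to 3.50 FPKM at day 4, but the controls were 6.68 to 7.07 FPKM for the earlier harvest and 22.5 to 39.6 FPKM for the later one. Sln, the sarcolipin gene, was 0.160 and 0 FPKM at day 4 and 3.05 and 1.85 FPKM at day 6, with 1.49 FPKM in the day 4 set control and 16.1 and 18 FPKM in the day 6 set controls. C1qtnf3, a secreted C1q/TNF family gene, was 47.1 and 17.6 FPKM at day 4 and 63.2 and 260 FPKM at day 6, so the day 6 libraries were far apart, and controls ran from 160 to 355 FPKM.

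Of the 48 sustained higher genes, which stood above all controls on both days, 39 met the own-set check. Median differences of the 48 from controls were 1.66 at day 4 and 1.60 at day 6, values that the class rule keeps similar in part. Serpina3m, an antichymotrypsin family inhibitor, was 74.3 and 34.8 FPKM at day 4 and 31.4 and 30.8 FPKM at day 6, against 0.926 to 2.85 FPKM in controls. Its day 6 minus day 4 value was -0.69 ± 0.40 (SE), within the spread of the day 4 libraries, and it shares sequence with Serpina3n, so counts may be split. Apod, a lipid-binding lipocalin, was 40.9 and 30.6 FPKM at day 4 and 43.2 and 47.3 FPKM at day 6, against 5.04 to 7.97 FPKM in controls, and rose on both days (adjusted p = 0.0109 and 0.0144). Il11, a cytokine of the IL-6 family, was 15.5 and 16.6 FPKM at day 4 and 11.2 and 16 FPKM at day 6, against 0.477 to 3.25 FPKM in controls, and rose at day 4 (adjusted p = 0.0342) but did not pass at day 6 (0.125).

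Alpl and Ttyh1 stayed above the controls at day 6 but at lower levels than at day 4. The alkaline phosphatase gene Alpl was 296 and 363 FPKM at day 4 and 101 and 136 FPKM at day 6, against 23.2 to 33.2 FPKM in controls. It rose on both days (adjusted p = 0.00384 and 0.0402), and day 6 minus day 4 was -1.48 ± 0.25 (adjusted p = 0.246), with 0.20 between the control sets. Ttyh1, a volume-regulated anion channel gene, was 93.3 and 56.7 FPKM at day 4 and 27.7 and 17.7 FPKM at day 6, against 4.63 to 6.04 FPKM in controls, and rose at day 4 (adjusted p = 0.00694). Hspb7, a small heat shock protein gene, was 3.46 and 3.38 FPKM at day 4 and 8.5 and 4.77 FPKM at day 6, against 0.327 to 0.534 FPKM in controls, and rose on both days (adjusted p = 0.0373 and 0.0372). For Pla1a, a phospholipase, the day 4 libraries were 12.8 and 33.0 FPKM, the day 6 libraries 13.4 and 13.5 FPKM and the controls 0.818 to 1.17 FPKM, and the gene rose at day 4 (adjusted p = 0.0152, with 0.0563 at day 6). Map3k6, a stress kinase, and Cpne7, a copine, also rose at day 4 (adjusted p = 0.0274 and 0.0275) and missed the threshold at day 6 (0.0822 and 0.0930).

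In the 6 sustained lower genes named here day 6 knockout replicate 1 was the lower library of its day. Cxcl10, the interferon-induced chemokine, was 198 and 45.2 FPKM at day 4 and 105 and 393 FPKM at day 6, against 506 to 637 FPKM in controls. Rgs5, a G protein regulator known from pericytes, was 63.7 and 37.8 FPKM at day 4 and 28.3 and 106 FPKM at day 6, against 135 to 147 FPKM in controls. Htra1, a secreted serine protease gene, was 81.7 and 40.9 FPKM at day 4 and 57.5 and 107 FPKM at day 6, against 133 FPKM in the day 4 set control and 268 and 231 FPKM in the day 6 set controls. Day 6 knockout replicate 2 lay nearer the controls in all 3 of these. Replicate 1 also had the lowest mean level of 33 interferon-stimulated genes (2.27 on the log2 scale, against 2.85 to 3.77 in the other 6 libraries), and the part of this in the class was not tested. None of Cxcl10, Rgs5, Htra1, Gamt, AW112010 and D630033O11Rik passed against the controls on either day.

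Among the late higher genes, Grem1 was 501 and 267 FPKM at day 6, 143 and 101 FPKM at day 4, 178 FPKM in the day 4 set control and 195 and 164 FPKM in the day 6 set controls. Day 6 lay above all controls and day 4 below them, and the control sets differed by 0.01. Its day 6 minus day 4 value was 1.60 ± 0.32 (SE, unadjusted p = 0.00113, adjusted p = 0.257) and with the set difference taken out 1.59 ± 0.53. Col8a1, a short-chain collagen gene, was 154 and 66.9 FPKM at day 6, 43.7 and 27.0 FPKM at day 4 and 40.7 to 53.3 FPKM in controls. Col4a1, a basement membrane collagen gene chosen after its values were seen, was 818 and 610 FPKM at day 6, 434 and 486 FPKM at day 4 and 267 to 420 FPKM in controls, so day 4 already lay above the controls. Galnt15, which adds sugars to secreted proteins, was 77.3 and 36.6 FPKM at day 6, 24.3 and 23.2 FPKM at day 4 and 10.7 to 14.4 FPKM in controls.

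Cntfr, which codes for the receptor of ciliary neurotrophic factor, was in the late lower class at 1.39 and 5.52 FPKM at day 6, 7.48 and 6.28 FPKM at day 4 and 11.5 to 18.4 FPKM in controls. The day 4 libraries already lay below the controls, and neither day passed.

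Other late genes were less even. Mpp6, a membrane scaffold gene, was 16.3 and 10.8 FPKM at day 6 and 8.14 and 4.92 FPKM at day 4, against 2.17 to 3.23 FPKM in controls. Serpine2, a protease inhibitor, was 356 and 210 FPKM at day 6 and 129 and 185 FPKM at day 4, while the controls spread from 72.5 to 183 FPKM. The pentraxin gene Ptx3 was 14.1 and 10.8 FPKM at day 6, 7.12 and 2.47 FPKM at day 4 and 0.646 to 8.99 FPKM in controls. With the Y-linked gene Ddx3y as a covariate, the day 6 minus day 4 values of Serpine2 and Ptx3 turned from 0.82 and 1.33 to -0.30 and -0.25. Hotairm1 and Epb41l4aos are in the class with a listed 0 in the second day 6 set control. Ifi27l2a, an interferon-induced gene in the late lower class, was 40.4 and 114 FPKM at day 6, 390 and 191 FPKM at day 4 and 138 to 204 FPKM in controls. Bola1, a mitochondrial iron-sulfur protein gene, was 1.87 and 2.35 FPKM at day 6, 4.94 and 8.15 FPKM at day 4 and 4.89 to 7.40 FPKM in controls.

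Medians of the collagen, elastic fibre and basement membrane lists were positive, and 0 of their members passed by limma with the controls in 1 group. Of 14 fibrillar and fibril-associated collagens, 11 had both day 6 libraries above both day 4 libraries (27.2% over all tested genes), 8 at an unadjusted p under 0.05 (8.53% over all), with a median of 1.10 (controls 0.40, all genes 0.053). With the set difference taken out the median was 0.56. In the day 4 set control 4 of the 15 listed collagens were at 0, against 0 or 1 in each other library, which affects both control values. Col5a3 was 14.7 and 16.2 FPKM at day 4 and 32.3 and 53.5 FPKM at day 6, against 46.4 to 76.1 FPKM in controls, and fell at day 4 (adjusted p = 0.0441). Col6a3, a chain of collagen VI, was 56.0 and 108 FPKM at day 4 and 243 and 207 FPKM at day 6, against 141 to 222 FPKM in controls. Of 19 elastic fibre and matricellular genes 18 were positive (56.5% over all tested genes) with a median of 0.54 (controls 0.05). Fbn1, which codes for fibrillin-1, was 42.8 and 55.7 FPKM at day 4 and 180 and 125 FPKM at day 6, against 69.5 to 115 FPKM in controls. Mfap5, a microfibril gene, was 55.2 and 37.7 FPKM at day 4 and 145 and 120 FPKM at day 6, against 94.5 to 129 FPKM in controls. In both, day 4 lay below all controls. Day 6 lay above them for Fbn1 and overlapped them for Mfap5.

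Of 15 basement membrane genes, 10 had the day 6 libraries above those of day 4 (27.2% over all tested genes) and 1 below (15.3%), with a median of 0.52 (controls 0.21). Lama2, the laminin alpha-2 chain, was 31.8 and 46.3 FPKM at day 4 and 105 and 70.6 FPKM at day 6, against 43.6 to 57.0 FPKM in controls. Lamb2, the laminin beta-2 chain, was 17.7 and 25.6 FPKM at day 4 and 52.2 and 38.9 FPKM at day 6, against 32.8 to 39.6 FPKM in controls, which overlapped with day 6. Among 21 matrix proteases and inhibitors the median was 0.13 (controls 0.23) and members split. Mmp9, gelatinase B, was 3.13 and 0.370 FPKM at day 4 and 8.52 and 14.1 FPKM at day 6, against 4.60 to 12.4 FPKM in controls. Mmp8, a collagenase, was 4.62 and 19.4 FPKM at day 4 and 3.13 and 4.31 FPKM at day 6, against 0.0629 to 0.779 FPKM in controls, and rose at day 4 (adjusted p = 0.0441).

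Of 10 trophocyte markers, 9 were positive (56.5% over all tested genes) and 5 were higher at an unadjusted p under 0.05 (8.53% over all), with a median of 0.59 (controls 0.11). The sort marker Cd81 is 1 of these 5 (limma, unadjusted p = 0.029). The mean level of the list was lowest in day 4 knockout replicate 2, at 5.64 on the log2 scale. It was 6.02 in replicate 1 of that day and 6.21 to 6.64 in the other libraries. Cd34, a crypt fibroblast marker, was 220 and 170 FPKM at day 4 and 298 and 353 FPKM at day 6, against 454 to 509 FPKM in controls, and fell at day 4 (adjusted p = 0.0413). Wnt2b, a canonical WNT ligand, was 10.5 and 11.3 FPKM at day 4 and 16.1 and 19.2 FPKM at day 6, against 22.4 to 38.2 FPKM in controls, and fell at day 4 (adjusted p = 0.0489). Both stayed below every control at day 6. Rspo3, an R-spondin, was 17.3 and 29.1 FPKM at day 4 and 26.6 and 29.4 FPKM at day 6, within or near the controls (24.5 to 26.2 FPKM), and its day 6 minus day 4 value of 0.30 turned to -0.06 without day 4 knockout replicate 1. Rspo2 was 3.81 and 2.07 FPKM at day 4 and 4.90 and 10.8 FPKM at day 6, against 10.3 to 19.4 FPKM in controls.

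All 10 tested BMP antagonists were positive (56.5% over all tested genes), with 3 higher at an unadjusted p under 0.05 (8.53% over all) and a median of 0.41 (controls 0.06). Beside Grem1 these were Fst, which codes for the activin binder follistatin and was 2.59 and 1.26 FPKM at day 4 and 4.70 and 6.10 FPKM at day 6, and Chrdl1, a chordin-like gene at 6.26 and 2.12 FPKM at day 4 and 12.8 and 11.4 FPKM at day 6. The controls were 1.31 to 3.88 FPKM for Fst, below day 6, and 8.53 to 17.4 FPKM for Chrdl1, around it. Of 14 telocyte markers, genes of the Foxl1 cells at villus bases, 2 were positive (56.5% over all tested genes), with a median of -0.50 (controls 0.16). Bmp5, a BMP ligand, was 26.6 and 50.4 FPKM at day 4 and 20.6 and 22.8 FPKM at day 6, against 17.9 to 35.6 FPKM in controls. This list leaned on day 4 knockout replicate 2, whose summed telocyte level was 403 FPKM against 217 to 275 FPKM in the other 6 libraries.

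Among growth factors of the FGF, HGF, IGF and PDGF families (14 tested, median 0.34, controls 0.18), members lay on both sides. Hgf, the ligand of MET, was 26.3 and 38.1 FPKM at day 4 and 11.8 and 18 FPKM at day 6, against 16.4 to 24.8 FPKM in controls. Pdgfd was 8.56 and 4.55 FPKM at day 4 and 11.1 and 18.8 FPKM at day 6, against 21.7 to 23.4 FPKM in controls, and fell at day 4 (adjusted p = 0.0441). Of 16 TGF-beta ligands and targets 3 were transient lower (2.31% over all genes placed), and the list had a median of 0.35 (controls 0.30) and of -0.06 with the set difference taken out. Tgfb3, a TGF-beta ligand, was 32.3 and 25.9 FPKM at day 4 and 41.4 and 67.3 FPKM at day 6, against 67.6 to 92.2 FPKM in controls, and Tgfbi, a matrix protein induced by TGF-beta, was 55.0 and 55.0 FPKM at day 4 and 132 and 121 FPKM at day 6. The controls of Tgfbi were 154 FPKM in the day 4 set and 297 and 269 FPKM in the day 6 set, so that its sets differed by 0.87 of the 1.19 seen in the knockouts. Of 7 WNT/beta-catenin targets 6 were positive (56.5% over all tested genes), among them Nkd1, a feedback inhibitor, at 3.05 and 3.36 FPKM at day 4 and 5.74 and 11.6 FPKM at day 6, against 9.27 to 11.8 FPKM in controls.

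The adventitial fibroblast list (8 tested) had a median of 0.70 (controls 0.02), and the program lists not described here had medians from -0.21 to 0.41. Inflammatory cytokines and chemokines had a median of 0.12 in the knockouts and 0.55 in the controls, with both classes in 1 list: Cxcl13 and Ccl11 transient higher, Il11 sustained higher, Il33 transient lower and Cxcl10 sustained lower. Acute phase serpins and lipocalins had a median of -0.41, near that of the controls (-0.44). Hp, which codes for haptoglobin, differed there: 8.02 and 6.35 FPKM at day 4 and 12.5 and 19.4 FPKM at day 6, against 2.86 FPKM in the day 4 set control and 0.347 and 0.918 FPKM in the day 6 set controls. Interferon-stimulated genes had a median of -0.37 (32 tested, 6 positive against 56.5% over all tested genes, controls 0.09), and 0 were at an unadjusted p under 0.05. Their mean level on the log2 scale was 3.77 and 2.85 at day 4 and 2.27 and 3.57 at day 6. Only day 6 knockout replicate 1 lay below both day 4 libraries. Of 15 ribosomal protein genes 11 had the day 6 libraries below those of day 4 (15.3% over all tested genes), 8 at an unadjusted p under 0.05 (2.93% over all), with a median of -0.86, but the controls differed by -0.60 in the same direction.

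**Figure D3:**
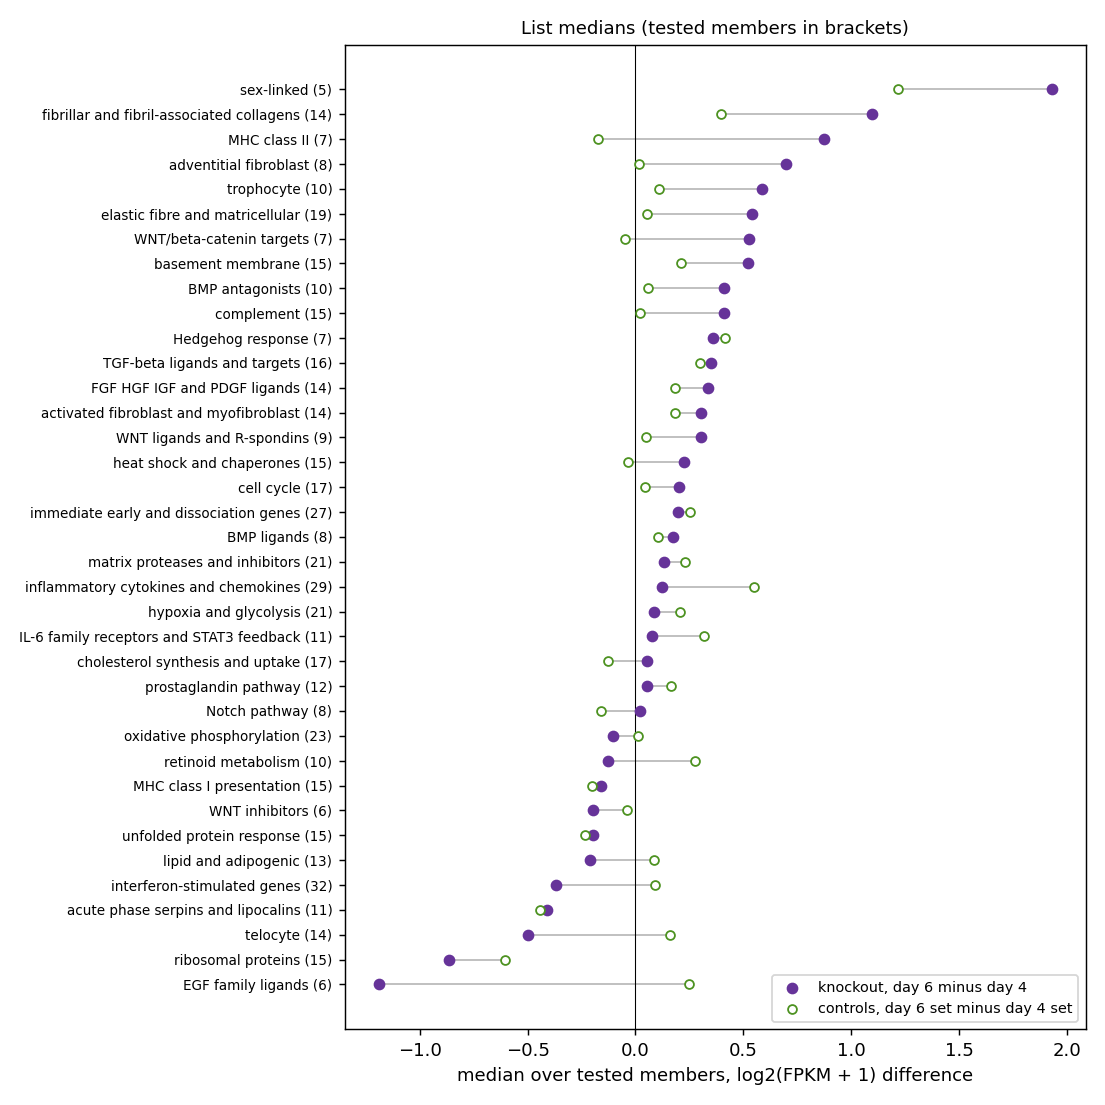
Median difference over the tested members of each gene list (x axis, log2(FPKM + 1) scale), day 6 minus day 4 in knockouts as filled points and day 6 set minus day 4 set in controls as open points, for lists with at least 5 tested members. EGF family ligands lie farthest left (-1.19) with controls on the other side (0.25), while ribosomal proteins (-0.86) lie near their controls (-0.60).

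The harvest sets themselves differed in the controls. By limma with 4 groups, 32 genes rose (0.273%) and 8 fell (0.0682%) in the 2 day 6 set controls against the single day 4 set control, whose spread was assumed to be that of the other groups. The count of 40 became 18 without the first and 7 without the second day 6 set control. Gapdh, the glycolytic enzyme often used as a reference, was 193 FPKM in the control and 215 and 277 FPKM in the knockouts of the day 4 set, and 91.4 and 77.3 FPKM in the controls and 66.5 and 77.2 FPKM in the knockouts of the day 6 set. Khdrbs3, an RNA-binding protein gene, was 4.49, 4.03 and 3.38 FPKM in the day 4 set and between 57.3 and 79.7 FPKM in the 4 libraries of the day 6 set. In both genes the knockouts lay with the controls of their set. Khdrbs3, like Col1a2, Dcn and Col3a1 below, was chosen after its values were seen.

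In the 4-group fit, which does not let the set difference widen the spread of the controls, 59 genes rose (0.503%) and 24 fell (0.205%) from day 4 to day 6 in the knockouts. Of these 83, 68 had a control difference between sets of the same sign and at least 0.5 times as large. The share of all tested genes that met this rule, also used for the classes above, was not counted. Among the 68 were 14 genes with ribosomal protein symbols, several of them near-identical copies or pseudogenes whose reads may be shared. Of the other 15, 9 had a smaller control difference of the same sign and 6 an opposite one. These 15 were 8 transient lower genes (Tppp3, Crip1, Nkain4, Creb5, Igsf10, Enpp3, Mmp23 and Tnxb), 3 transient higher genes (Cxcl13, Rgs2 and Kcnip3) and 4 without a class (Gdpd3, Il15ra and Gm7367 among them), and the group was named after its values were seen. The 4-group adjusted p was 0.0435 for Tppp3, 0.0464 for Crip1, 0.0379 for Cxcl13 and 0.0246 for Rgs2. Leaving out day 4 knockout replicate 1 gave 146 calls and leaving out replicate 2 gave 38, of which 32 were shared. Leaving out day 6 knockout replicate 1 gave 11 calls, 9 of them shared, and leaving out replicate 2 gave 18, all 18 shared.

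**Figure D4:**
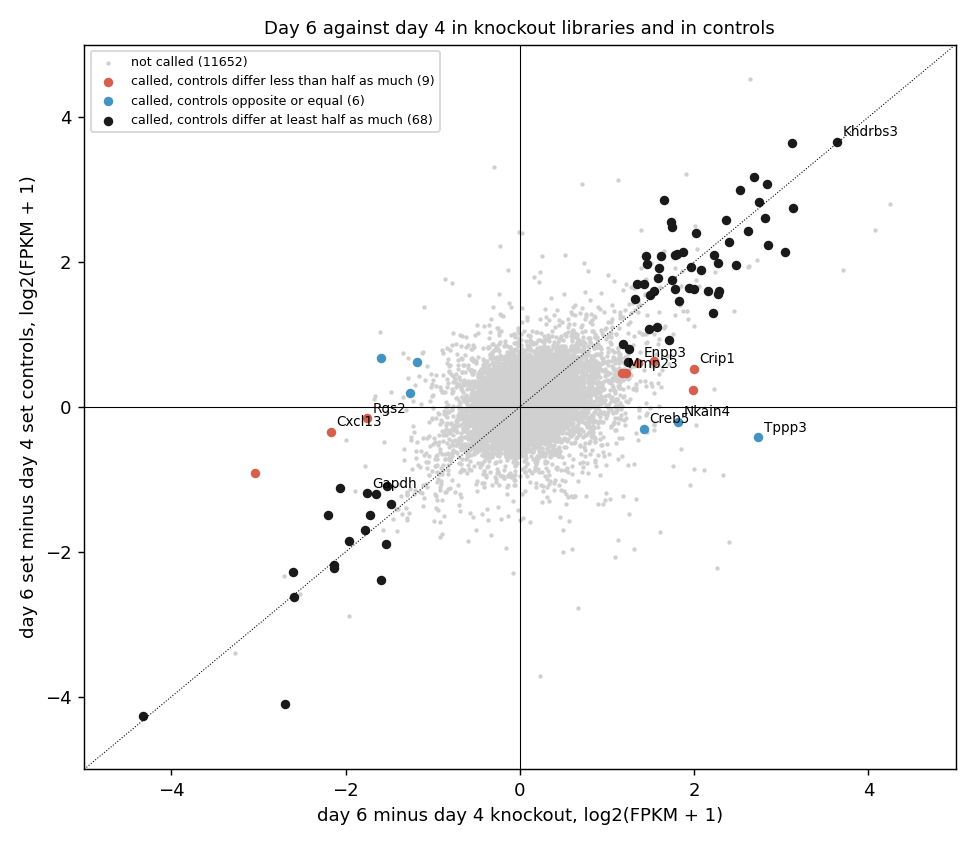
Each point is a tested gene, with day 6 minus day 4 in the knockouts on the x axis and day 6 set minus day 4 set in the controls on the y axis (log2(FPKM + 1) scale), and 10 genes lie beyond the 5 log2 units drawn. The 68 genes called in the 4-group fit and shared with the controls follow the dotted line of equality, in part because the rule for sharing requires it. Tppp3, Nkain4 and Creb5 lie below 0 on the y axis.

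Gdpd3, a lysophospholipase D gene, stood on opposite sides of its controls on the 2 days. It was 12.9 and 15.8 FPKM at day 4 against 5.15 FPKM in the day 4 set control, and 4.12 and 3.99 FPKM at day 6 against 9.37 and 8.38 FPKM in the day 6 set controls. Il15ra, the IL-15 receptor alpha chain, was 25.8 and 21.2 FPKM at day 4 against 8.27 FPKM, and 9.76 and 9.82 FPKM at day 6 against 12.5 and 14.1 FPKM. Their set-adjusted values, the knockout change minus the control difference between sets, were -2.28 ± 0.30 (SE, unadjusted p = 0.000119) and -1.80 ± 0.29 (unadjusted p = 0.00043), and neither passed. By limma 3 genes passed the set-adjusted test (0.0256%), with 448 at an unadjusted p under 0.05 where 587 are expected. They were Dcn (decorin), Col1a2 and Col1a1, all listed at 0 in the day 4 set control only. With such zeros set missing, 0 genes passed. The count was 1 without the first day 6 set control, 5 when day 4 knockout replicate 2 was left out and 8 without day 6 knockout replicate 1. Col1a1 was 722 and 382 FPKM at day 4 and 1586 and 3618 FPKM at day 6, against 1976 and 2971 FPKM in the day 6 set controls. Col3a1 is also listed at 0 in day 6 knockout replicate 2.

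Other genes with the smallest p for day 6 against day 4, among those with a mean of at least 3 FPKM and no overlap between days, lay higher or lower at day 6. On the higher side stood Hmga1, a chromatin architectural gene at 8.55 and 7.14 FPKM at day 4 and 20.4 and 17.1 FPKM at day 6, against 9.81 to 10.7 FPKM in controls. Igf2r, which clears IGF2, was 2.63 and 3.16 FPKM at day 4 and 8.12 and 6.76 FPKM at day 6, against 5.03 to 5.67 FPKM in controls. Both lay below the controls at day 4 and above them at day 6. Adamtsl4, Atp11a and Slit2, a guidance ligand, had day 6 minus day 4 values of 1.17 ± 0.20, 1.15 ± 0.19 and 1.12 ± 0.19 (SE), with 0.01, 0.16 and 0.09 in the controls. On the lower side, Hmgn2, a nucleosome-binding gene, was 155 and 157 FPKM at day 4 and 84.8 and 82.5 FPKM at day 6, against 100.3 to 117 FPKM in controls. Hist1h2bf, a histone gene, had -2.06 ± 0.41, with -1.12 in the controls. Pfdn4, Hint2, Xpa and Zmat2 had values from -1.22 to -0.85, with adjusted p from 0.246 to 0.257.

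Markers of other cells were high or low in single libraries more often than by day. Summed macrophage and dendritic markers (16 genes) were 449 and 26.2 FPKM at day 4, 397 and 217 FPKM at day 6 and 152 to 232 FPKM in controls, and 1 marker was at 0 in day 4 knockout replicate 2. Of 14 tested 0 passed, all 14 were positive (56.5% over all tested genes) with a median of 1.09, and MHC class II genes (7 tested) had a median of 0.88, with that library the lowest in both lists. B and plasma markers summed to 2694 and 40.0 FPKM at day 4 and 243 and 454 FPKM at day 6, and T and NK markers to 16 and 1.62 FPKM at day 4 and 3.22 and 15.4 FPKM at day 6. Epithelial markers (14 genes) summed to 37.2 and 13.3 FPKM at day 6, 16 and 11.2 FPKM at day 4 and 8.998 to 12.1 FPKM in controls. Krt8, an epithelial keratin, was 8.31 and 1.56 FPKM at day 6 and at most 0.701 FPKM in the other 5 libraries. Pericyte markers summed to 121 and 126 FPKM at day 4, 105 and 186 FPKM at day 6 and 206 to 217 FPKM in controls, where Rgs5 gave much of the sum. Their mean level on the log2 scale was 2.71 and 2.59 at day 4, 2.74 and 3.22 at day 6 and 2.77 to 2.94 in controls. Of 7 tested pericyte markers, 1 was sustained higher, 1 sustained lower and 1 transient lower. The part of these cells in the gene differences was not tested.

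Paneth cell and antimicrobial genes did not overlap between the days in the knockouts, at 3.67 and 5.04 FPKM summed over 9 genes at day 4 and 31.4 and 40.4 FPKM at day 6, but the controls were 48.5 FPKM in the day 4 set and 4.46 and 30.4 FPKM in the day 6 set. Lyz1, the Paneth lysozyme gene, was 1.73 and 1.27 FPKM at day 4 and 12.9 and 11.3 FPKM at day 6, against 13.3, 1.60 and 4.96 FPKM in controls. Blood endothelial markers summed to 87.2 and 123 FPKM at day 4 and 71.0 and 107 FPKM at day 6. Smooth muscle markers summed to 102 and 281 FPKM at day 4 and 127 and 142 FPKM at day 6, and lymphatic markers to 47.1 and 61.1 FPKM at day 4 and 63.7 and 66.3 FPKM at day 6. Neutrophil and mast, glial, Cajal cell and mesothelial markers stayed at or under 7.75 FPKM summed in every library, and erythroid markers ranged from 1.397 to 62.3 FPKM.

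Sex-linked genes followed the harvest set in part. Ddx3y, a Y-linked helicase gene, was listed at 0 in the 3 libraries of the day 4 set, 39.9 and 0.182 FPKM in controls of the day 6 set and 34.8 and 9.10 FPKM in the day 6 knockouts. Xist, expressed from the inactive X, ran from 3.48 to 6.99 FPKM over the day 4 set and was listed at 0 in the first day 6 set control and day 6 knockout replicate 1. Day 6 against day 4 therefore also compares libraries with and without Y-linked RNA. With Ddx3y as a covariate 524 genes were higher and 197 lower at an unadjusted p under 0.05, against 1001 and 344 without it.

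**Figure D5:**
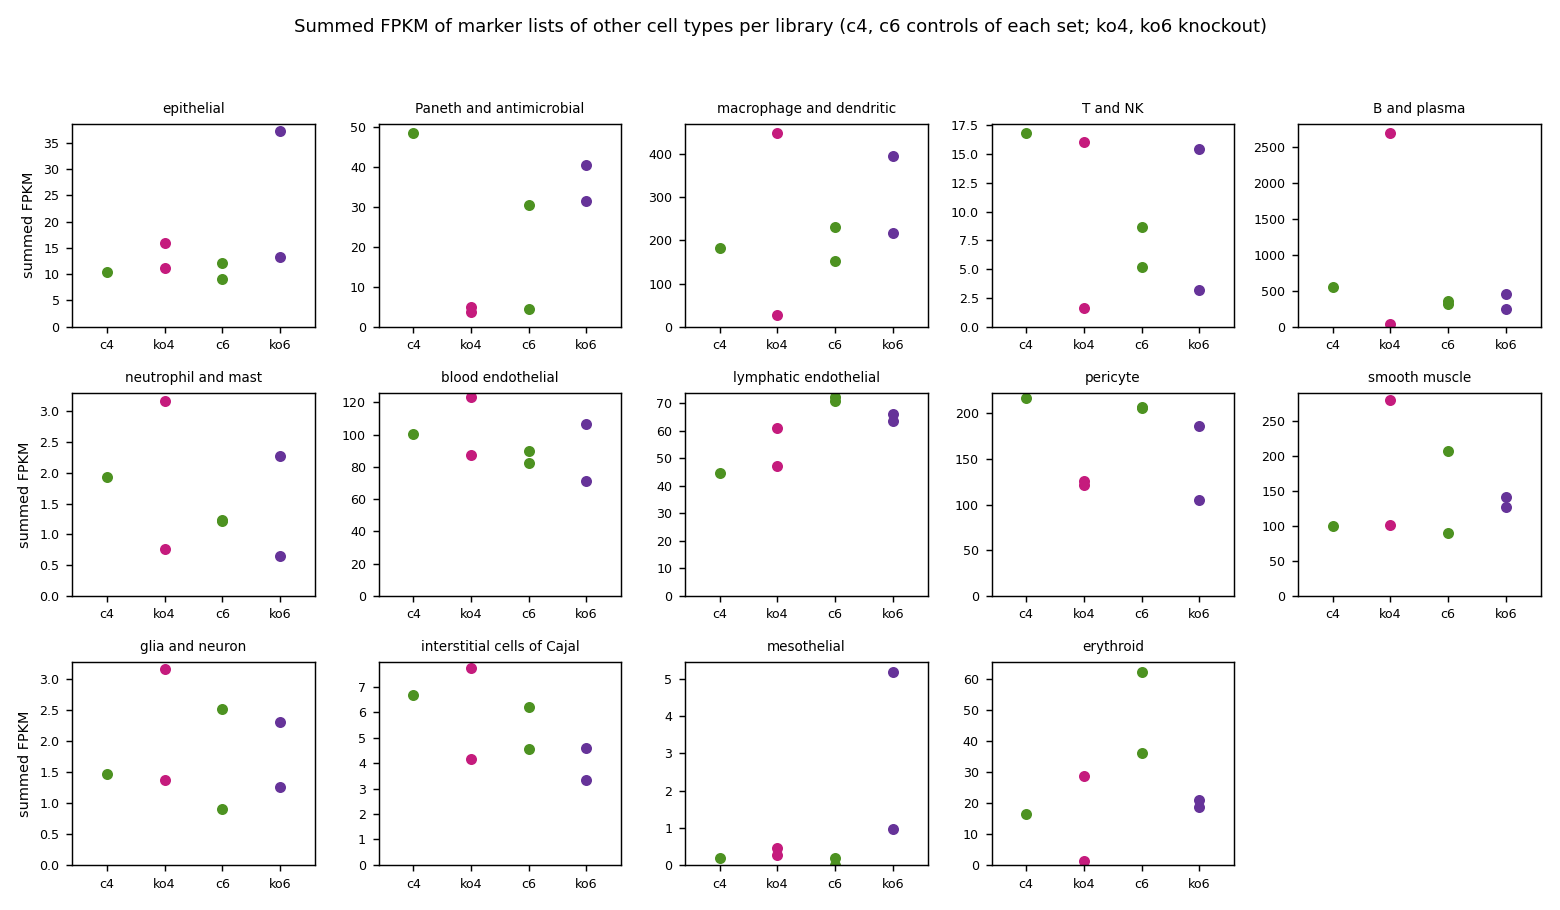
Summed FPKM (y axis, from 0) of the marker lists of 14 other cell types per library, with controls of the day 4 set (c4), day 4 knockouts (ko4), controls of the day 6 set (c6) and day 6 knockouts (ko6). Macrophage and B cell markers are lowest in 1 day 4 knockout library (26.2 and 40.0 FPKM), and epithelial markers highest in 1 day 6 knockout library (37.2 FPKM).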

How the data were processed

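FPKM values per gene symbol were deposited by the authors for 7 libraries in 1 table. The submitters' processing notes name mm9, kallisto 0.46.1 and DESeq2 1.40.1 without their roles, and the step that made FPKM is not given in the sources used here. Libraries were made from poly-T selected RNA with random hexamers, per the labels' protocols. Of 25493 entries 293 symbols occurred more than once and kept the entry with the highest mean, leaving 24908 symbols, and FPKM sums ran from 351323 to 427369 per library.

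Tests used limma 3.58.1 (R 4.3.3) with an intensity trend on log2(FPKM + 1), which understates changes of low genes, for 11735 genes that reached 1 FPKM in 2 or more libraries. The 3-group fit (day 4, day 6, wildtype) has 4 residual degrees of freedom, and a 4-group fit splits the controls by harvest set. P-values were adjusted by Benjamini-Hochberg over all tested genes, and every adjusted p given is from limma. An exact permutation test of 2 against 2 libraries cannot go below 0.333. Tables and plots used Python 3.11.15, pandas 2.3.3 and matplotlib 3.10.9.

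The members and the 51 gene lists were chosen with earlier results of these data known. Named were 8 fixed genes, 12 per direction for day 6 against day 4 (by change if called, otherwise smallest p, mean of at least 3 FPKM, no overlap), up to 6 per class with the own-set check, and up to 4 per list with no overlap. Exceptions are marked. Some results for single genes are not reported here. Alternatives covered pseudocount, filter, scaling, zeros, covariates, control sets, replicate block and each library left out.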

Additional observations from a re-analysis of the deposited data

Results flagged for a closer look

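Set-adjusted values are the knockout difference between days minus the control difference between harvest sets, on the log2(FPKM + 1) scale. By limma 3 genes passed that test over all genes: Dcn at -13.11, Col1a2 at -9.62 and Col1a1 at -9.06. All 3 are listed at 0 in the day 4 set control and nowhere else.

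Among the 182 named genes, 7 had both day 4 knockout libraries below and both day 6 libraries above all 3 controls. Their set-adjusted values were 1.59 for Grem1, 1.15 for Fbn1, 1.15 for Hmga1, 1.00 for Igf2r, 0.91 for the Notch receptor gene Notch2, 0.85 for the annexin gene Anxa3 and 0.73 for Il6st, the shared IL-6 family receptor. Another 8 had day 4 above and day 6 below all controls. Their values were -2.28 for Gdpd3, -1.46 for Kcnip3, -1.30 for Xpa, -0.97 for Pfdn4, -0.94 for Hist1h2bf, -0.69 for Hmgn2, -0.61 for Zmat2 and -0.56 for Gapdh. None of these 15 passed the set-adjusted test over all genes. Over the 9017 genes with a mean of at least 3 FPKM, 109 lay on opposite sides in the first direction and 37 in the second.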

How the results depend on the processing

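The 0 calls for day 6 against day 4 became 61 with the 4 knockout libraries only, 83 with 4 groups and 15 with the replicate block, and ranged from 0 to 83 with 1 library left out. No label says whether the replicate numbers pair libraries across days. The replicate differences of both days had r = -0.028 over 11735 genes, which cannot decide this. At an unadjusted p under 0.05, the 1001 higher genes became 524 with the Ddx3y covariate (540 to 1045 with 1 library left out), and the 344 lower genes became 683 with quantile normalization, 604 with median centring and 197 with the Ddx3y covariate (122 to 568). The 40 calls between control sets became 15 with no filter on low values (7 to 37), the 3 set-adjusted calls 0 with zeros set missing (1 to 8), the 83 4-group calls ranged from 11 to 146, and the 68 shared ones from 9 to 57. Against wildtype at day 4, the 47 higher genes became 73 with quantile normalization and 5 with the own harvest set (2 to 137), and the 73 lower genes 0 with the own set (0 to 337). At day 6 the 5 higher genes became 2 with a pseudocount of 0.1, 0 with quantile normalization and 2 with the own set (0 to 6). With own-set controls there were 33 transient higher, 108 transient lower and 13 late higher genes, of which 17, 89 and 8 were shared with the main classes. With a mean of at least 10 FPKM there were 31 transient higher, 132 transient lower, 14 sustained lower, 12 late higher and 1 late lower genes. With 1 library left out the classes ranged over 46 to 153 (transient higher), 156 to 392 (transient lower), 37 to 63 (sustained higher), 3 to 74 (sustained lower), 13 to 82 (late higher) and 3 to 88 (late lower). With the Ddx3y covariate Calr (-0.12), Csf3 (-0.087), Gdf10 (-0.39), Myc (-0.25), Ndrg1 (-0.35), Ptx3 (-0.25), Serpine2 (-0.30) and Uty (-0.053) changed sign. Leaving out 1 library, Rspo3 ran from -0.057 to 0.67 and Pla1a from -1.23 to 0.074. Of 3430 values for 182 named genes over 19 settings, 3379 kept direction and side of the threshold, 41 passed it newly and 10 reversed. The cause was not tested. FPKM carry no depth, so counting error is unknown.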

Other observations

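In Nr1d1, Dbp and Per2, genes of the circadian clock chosen after their values were seen, the day 6 set controls stood apart from the other 5 libraries. Nr1d1, which codes for the clock repressor REV-ERB alpha, was 7.03 FPKM in the day 4 set control, 6.99 and 12 FPKM in the day 4 knockouts, 67.1 and 72.2 FPKM in controls of the day 6 set and 22.9 and 19.5 FPKM in the day 6 knockouts. Dbp, a clock output gene, was 0.695 FPKM, 0.489 and 0.247 FPKM, 5.03 and 3.15 FPKM, and 0.825 and 1.06 FPKM in the same order. Per2, a clock repressor gene, ran the other way at 7.01 FPKM, 5.14 and 7.18 FPKM, 1.88 and 1.64 FPKM, and 6.1 and 6.48 FPKM. No explanation was tested.

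Fkbp5, Tsc22d3 and Hsd11b1, also chosen after their values were seen and known to be linked to glucocorticoids, were above the controls in all 4 knockout libraries. Fkbp5, a glucocorticoid receptor co-chaperone gene, was 64.2 and 84.5 FPKM at day 4 and 73.2 and 28.1 FPKM at day 6, against 7.88 to 18.5 FPKM in controls. Tsc22d3, which codes for GILZ, was 550 and 428 FPKM at day 4 and 461 and 277 FPKM at day 6, against 156 to 273 FPKM in controls. Hsd11b1, which regenerates active glucocorticoid, was 799 and 1496 FPKM at day 4 and 962 and 628 FPKM at day 6, against 360 to 413 FPKM in controls. Zbtb16, another glucocorticoid-responsive gene, overlapped with the controls at day 6, at 14.4 and 10.4 FPKM against 5.79 to 11.7 FPKM in controls.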
